A study of Vaccinium virgatum with 9 samples.

Results

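The genes described here were higher in fruit of rabbiteye blueberry (Vaccinium virgatum) after potassium sulfate given at the young fruit stage than after potassium sulfate given at flowering or after water, while the flowering and water groups stood close together. They are 145 of the 38665 genes in the table. They were chosen from group means of CPM, counts scaled to the library total with TMM factors (edgeR's correction for library composition). A member had at least 5 CPM in the young fruit group, at least 1.5 times the mean of each of the other groups, and a ratio of flowering group to water above 4/5 and below its reciprocal, 5/4. These values chose the members, so every contrast between the groups is given below as a description, without a test of the members.

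RNA from whole fruit was sequenced in 9 libraries, 3 for each group. The groups were potassium at the young fruit stage (YG-10), potassium at flowering (KH-10), and water in the same amount (CK). Both potassium groups received 10 g of the fertilizer, analytically pure potassium sulfate in water, per plant, and all plants were 7 years old, of the cross Menditoo × Tifblue, and grown 1 to a pot. Fruit was picked 90 days after flowering in all groups, with 12 to 18 fruits in each replicate. The labels do not say whether replicates came from separate plants, so p-values speak only of how these libraries scatter, which can be technical. Potassium and sulfate were given together and cannot be told apart, and neither can the stage of treatment and the length of time before picking. In whole fruit, fewer cells of a type and less RNA per cell cannot be told apart either.

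Potassium is the most abundant inorganic cation of plant cells, where it sets turgor, balances charge across membranes and activates enzymes, and in fruit it accompanies the import of sugar through the phloem. Sulfate is taken up with it and reduced to make cysteine and glutathione. In blueberry, anthocyanins, the pigments named in the title of the series, collect in the skin as the fruit ripens. The table pairs no identifier with a gene name, so neither the roles of the members nor marker genes of the fruit can be given. Most identifiers begin with Vadar. The others share a different prefix and are called non-Vadar loci here, without their identifiers. Only 4 identifiers are printed, and other members are called by their rank.

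Library totals ran from 15655016 to 18424967 counts, and 1 CPM stood for 15.4 to 19.7 counts. The TMM factors were 0.961 to 0.976 in YG-10, 0.963 to 0.981 in KH-10 and 1.05 to 1.07 in CK. All 145 members passed the filter on low counts (edgeR's filterByExpr). The lowest count of any member in any library was 11, and the lowest in a YG-10 library was 63.

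The members were a small part of the genes that were higher after young-fruit potassium. Of 14354 genes with at least 5 CPM in YG-10, 2329 had at least 1.5 times the water mean, and 471 of these were also at least 1.5 times the KH-10 mean. Of the 471, 284 had a KH-10 mean at least 5/4 times that of CK, 42 had one at or under 4/5 times, and 145 lay in between. With KH-10 and YG-10 exchanged, the same rule gave 77 genes, with a median rise of 1.71 times and a median KH-10 level of 16.2 CPM. The rise of a member is the smaller of its ratios to KH-10 and to CK.

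**Figure D1:**
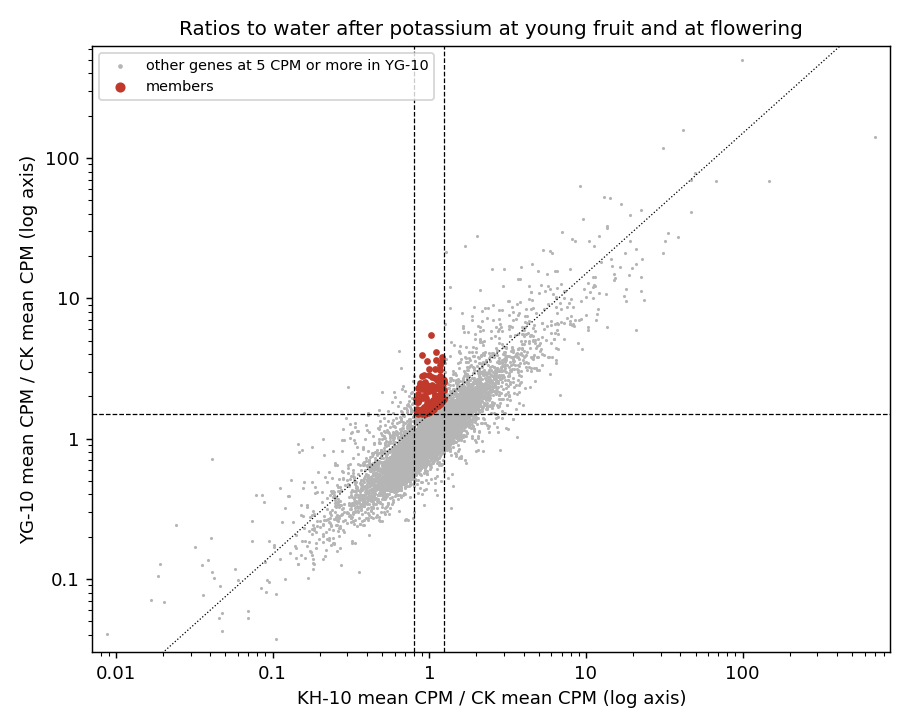
Each point is 1 of 14354 genes with at least 5 CPM in YG-10. The horizontal axis is the ratio of the KH-10 to the CK mean and the vertical axis that of the YG-10 to the CK mean, both on log axes. Dashed lines mark ratios of 4/5, 5/4 and 1.5, and the dotted line YG-10 at 1.5 times KH-10. The 145 members (red) fill the middle column above both lower limits, and most lie near those limits.

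Most members were modestly higher. The rise was 1.5 to 2 times in 99 members, 2 to 3 times in 38 and at least 3 times in 8, with a median of 1.71 times and a highest value of 5.35 times. On the log2 scale the median fold change over the members was 0.90 for YG-10 against CK and 0.83 for YG-10 against KH-10, beside -0.02 and -0.00350 over all 25728 genes tested. For KH-10 against CK it was 0.03, beside -0.02 over all genes tested. The median of the members' group means was 13.9 CPM in YG-10, 7.10 CPM in KH-10 and 7.23 CPM in CK. Medians taken over the members in each library averaged 13.2 CPM in YG-10, 7.79 CPM in KH-10 and 6.86 CPM in CK. The order of KH-10 and CK thus depends on which median is taken.

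YG-10 libraries stood apart from the others in nearly all members. In 140 of 145 members the lowest YG-10 library was above the highest library of both other groups, which was so for 9.89% of all genes tested. In edgeR's quasi-likelihood test with Benjamini-Hochberg adjustment over all genes, 143 members were past an adjusted p of 0.05 as higher in YG-10 than in CK (25.6% of all genes tested were). For YG-10 against KH-10, 142 members were (10.4% of all genes). The rule used both contrasts, so these counts only describe how far its choice exceeds the spread between replicates. The members that failed this test are among the 5 whose groups overlapped, described below.

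The name "raised only by young-fruit potassium" holds for the size of the ratios that the rule set, not for every member in the test. In KH-10 against CK, 9 members were higher and 6 lower past an adjusted p of 0.05 in edgeR's test (24.3% and 24.4% of all genes tested). The other 130 members missed the threshold, which does not show that the groups were alike. KH-10 means were above CK in 84 members and below in 61, and the ratio ran from 0.822 to 1.245 with a median of 1.03. Of the 17 members with at least 100 CPM in YG-10, 9 were among the 15, against 6 of the 128 less abundant ones. The shares of all genes called at such levels were not computed. Among genes that were not members, the SD of log2 CPM between replicates had a median of 0.29 at a mean of 1 to 10 CPM. Over 100 CPM it was 0.06. The part of level in these calls was not tested. How many members were higher and how many lower depends on scaling. With library totals alone, 3 members were higher and 18 lower in KH-10, and the median of all genes moved to -0.13.

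**Figure D2:**
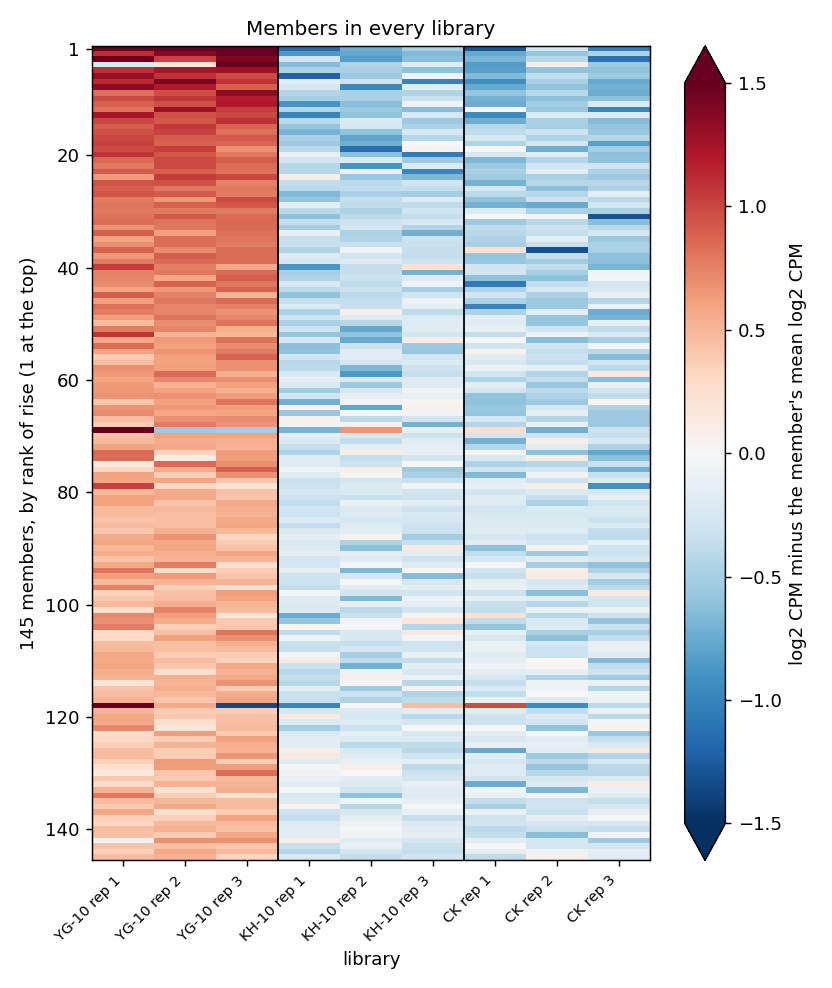
Rows are the 145 members from the largest rise (top) to the smallest, and columns are the 9 libraries. Colour gives log2 CPM minus the member's own mean over the libraries, cut at 1.5 either way. The YG-10 columns are red in nearly all rows, and the rows ranked 4, 69 and 118 stand out because their 3 YG-10 libraries differ widely.

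The member with the largest rise was Vadar_g21927.v1.2, a scarce transcript. It had 5.11, 5.47 and 4.70 CPM in the YG-10 libraries, against 0.732, 0.974 and 1.15 CPM in KH-10 and 0.663, 1.32 and 0.787 CPM in CK. All 3 YG-10 libraries lay above every other library, and the YG-10 mean was 5.35 times that of KH-10 and 5.52 times that of CK. Its YG-10 mean of 5.10 CPM sits just over the minimum level of the rule.

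The second largest rise was in a non-Vadar locus. It had 5.24, 6.31 and 7.55 CPM in YG-10, 1.34, 1.43 and 1.54 CPM in KH-10, and 1.45, 1.63 and 1.76 CPM in CK. The groups KH-10 and CK overlapped and YG-10 stood 3.95 times above CK. Vadar_g14394.v1.2, the third by rise, had 10.7, 7.40 and 9.72 CPM in YG-10, 2.99, 2.08 and 2.37 CPM in KH-10, and 2.29, 2.75 and 1.70 CPM in CK. Its YG-10 libraries were all above the rest, at 3.74 times the KH-10 and 4.14 times the CK mean.

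The fourth member by rise rests on 1 library. It had 5.30 and 6.95 CPM in YG-10 replicates 1 and 2 and 39.2 CPM in replicate 3, against 3.97 to 5.50 CPM in KH-10 and 3.50 to 6.61 CPM in CK. Its groups overlapped. Without YG-10 replicate 3 the log2 fold change against CK was 0.33, past no threshold in edgeR's test, and it was no longer a member. With all libraries, DESeq2 and limma did not call it higher in YG-10 than in KH-10.

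In the 5th and 6th members by rise all YG-10 libraries lay above the rest. With each library left out in turn, the fifth stayed a member 9 times and the sixth 8 times. The fifth was also abundant, with 234, 257 and 264 CPM in YG-10, 78.4, 78.0 and 71.3 CPM in KH-10, and 62.0, 72.2 and 72.2 CPM in CK. It combined a YG-10 level of 252 ± 15.9 CPM (SD, n = 3) with a rise of 3.31 times. The sixth had 9.42, 8.11 and 7.49 CPM in YG-10, 1.65, 2.60 and 3.71 CPM in KH-10, and 2.41, 2.95 and 2.60 CPM in CK. Its YG-10 mean was 3.14 times both others, which overlapped.

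**Figure D3:**
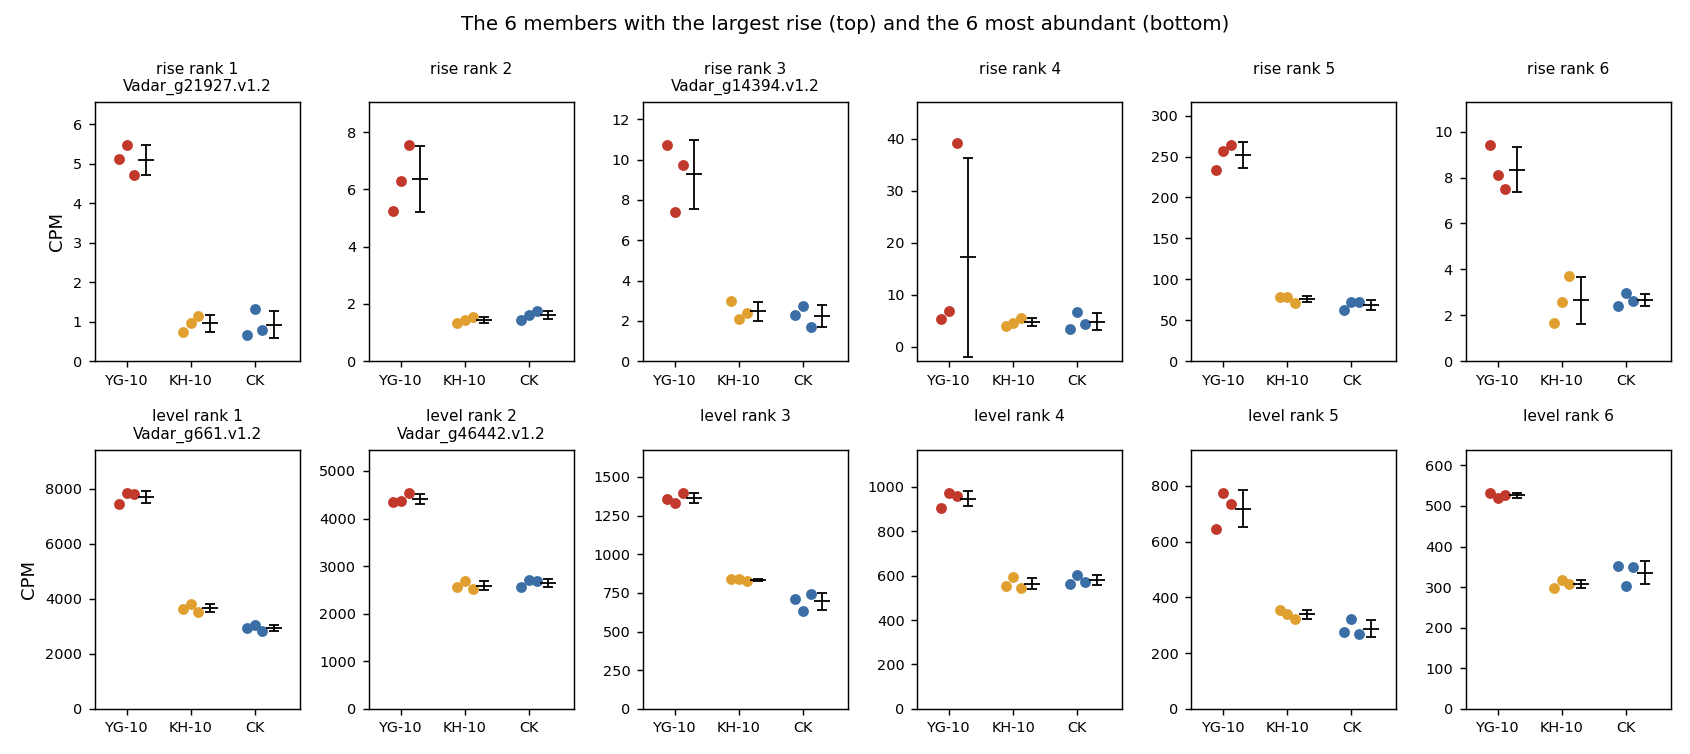
CPM in each library (points) with the mean and SD of the group (n = 3 each) for the 6 members with the largest rise and the 6 with the highest YG-10 level, each panel on its own linear axis. The 3 YG-10 points lie above all others in 11 panels. In the panel of rise rank 4, YG-10 replicate 3 at 39.2 CPM lies far above the other 2 replicates.

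A few abundant members held most of the members' reads. CPM is not corrected for gene length, and the table gives no lengths, so the order by CPM ranks reads and not molecules. Summed over the members, the level was 20838 ± 444 CPM in YG-10, 11075 ± 306 CPM in KH-10 and 10199 ± 110 CPM in CK (SD, n = 3 each). The most abundant member, Vadar_g661.v1.2, gave 37.0% of the YG-10 sum and the 6 most abundant gave 75.2%. Without Vadar_g661.v1.2 the sums were 13133 ± 244 CPM in YG-10, 7420.4 ± 163 CPM in KH-10 and 7259.6 ± 58.0 CPM in CK.

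Vadar_g661.v1.2 was the third most abundant of all genes in YG-10. It had 7449.6, 7852 and 7811 CPM in YG-10, 3526 to 3812 CPM in KH-10 and 2831 to 3038 CPM in CK. The 3 groups did not overlap with one another. Its YG-10 mean was 2.11 times KH-10 and 2.62 times CK. Its KH-10 mean was 1.24 times CK, just inside the limit of 5/4, and it was 1 of the 9 members that were also higher in KH-10 than in CK in edgeR's test.

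Vadar_g46442.v1.2, the second most abundant member and the seventh of all genes in YG-10, had the flatter pattern. It had 4344, 4371 and 4541 CPM in YG-10, 2554, 2697 and 2522 CPM in KH-10, and 2551, 2715 and 2687 CPM in CK. KH-10 and CK overlapped, and YG-10 was 1.71 times KH-10 and 1.67 times CK. The fourth most abundant member looked much the same, at 947 ± 35.4 CPM in YG-10, 565 ± 24.7 CPM in KH-10 and 580.02 ± 21.6 CPM in CK (SD, n = 3 each).

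The third and the fifth most abundant members were graded. The third averaged 1363 ± 32.4 CPM in YG-10, 834 ± 7.33 CPM in KH-10 and 697 ± 54.9 CPM in CK, and the fifth 718 ± 67.1, 338 ± 17.4 and 288 ± 29.5 CPM in the same order (SD, n = 3 each). KH-10 was above CK in edgeR's test in both. In the third the lowest KH-10 library, at 826 CPM, lay above the highest CK library, at 741 CPM, while in the fifth the KH-10 and CK libraries overlapped. The sixth went the other way between those groups, with 526 ± 6.76 CPM in YG-10, 308 ± 9.53 CPM in KH-10 and 335 ± 28.2 CPM in CK (SD, n = 3 each).

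The spread between replicates of the young fruit group varied among the members. The highest YG-10 library was a median of 1.16 times the lowest, and under 5/4 times in 102 members. The tightest of those with at least 20 CPM had 22.3, 22.4 and 22.1 CPM in YG-10, against 13.1, 15.4 and 13.1 CPM in KH-10 and 16.7, 13.8 and 13.9 CPM in CK. The next had 55.5, 54.9 and 54.7 CPM in YG-10, with 23.1 to 26.0 CPM in KH-10 and 22.8 to 27.7 CPM in CK. The third had 350.1, 358 and 352 CPM in YG-10, 225 to 243 CPM in KH-10 and 197 to 205 CPM in CK. Its 3 groups did not overlap.

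In 3 members the highest YG-10 library was at least 2 times the lowest: the fourth by rise and 2 others. The widest was a non-Vadar locus with 78.3, 36.9 and 9.66 CPM in YG-10, 12.5, 25.0 and 34.2 CPM in KH-10, and 49.0, 12.9 and 18.6 CPM in CK. All its groups overlapped. The other had 23.6 CPM in YG-10 replicate 1 but 4.05 and 4.15 CPM in replicates 2 and 3, against 3.66 to 9.42 CPM in KH-10 and 3.61 to 7.11 CPM in CK. Without YG-10 replicate 1 the log2 fold change against CK turned to -0.20 in the first and -0.33 in the second. In the remaining 142 members this ratio was at most 1.78. The 2 further members with overlapping groups had 8.73, 8.24 and 6.07 CPM in YG-10 with 6.27 CPM in a CK library, and 4.05, 6.76 and 6.75 CPM in YG-10 with 4.46 CPM in a KH-10 library.

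Deviations of single libraries from their group mean are not used by the rule. The median deviation over the members was between -0.02 and 0.03 on the log2 scale in each of the 9 libraries, beside -0.00333 to 0.00945 over all genes tested. The largest was in CK replicate 2. Within YG-10, replicates 1, 2 and 3 were the highest in 50, 48 and 47 members, and in 34.6%, 34.2% and 31.4% of all genes tested. These counts do not speak of the size of an excess, and the members with wide YG-10 libraries still rest on 1 library. The median SD of log2 CPM between replicates was 0.11 in YG-10, 0.15 in KH-10 and 0.15 in CK over the members, and 0.16, 0.15 and 0.16 over all genes tested in the same order. Counts of the members were higher in YG-10 by the rule, and their part in the lower SD was not tested. Among the 75 members with a mean of 1 to 10 CPM over all libraries the SD was 0.16 in YG-10, 0.25 in KH-10 and 0.21 in CK, beside 0.26, 0.25 and 0.24 in other genes of that level. Among the 56 with a mean of 10 to 100 CPM it was 0.10 in YG-10, 0.10 in KH-10 and 0.14 in CK, beside 0.09, 0.09 and 0.10 in other genes of that level.

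The rule was also applied to 8 libraries at a time and the genes so chosen were read in the library left out. Left out in turn, YG-10 replicates 1, 2 and 3 had 149, 145 and 146 genes chosen without them. In the library left out, 147, 144 and 143 of these genes were above both the KH-10 and the CK mean, and 104, 106 and 108 were at least 1.5 times both. Both means took part in the choice, so these counts are not independent of it. Of all 14354 genes with at least 5 CPM in YG-10, 471 had a YG-10 mean at least 1.5 times both. That is a mean of 3 libraries, so it is not the same measure. The shares of all genes in a single YG-10 library were not computed, so these counts have no base to be read against. The median ratio of the YG-10 library left out to CK was 1.76, 1.86 and 1.82. Its median level was 14.1, 11.6 and 11.9 CPM, below the 15.9, 12.0 and 12.6 CPM of the replicates that had taken part in the choice. For a CK library left out the reverse held, with 6.99, 8.49 and 7.14 CPM against 6.61, 7.34 and 6.83 CPM in the CK libraries used. For KH-10 these levels were 7.81, 8.34 and 8.51 CPM in the library left out and 7.86, 7.49 and 7.46 CPM in those used. With a KH-10 or CK library left out, 77.3% to 89.9% of the genes chosen had YG-10 means at least 1.5 times both that library and the mean of the other group. The YG-10 mean and that of the other group took part in the choice. The limits on KH-10 over CK held as well in fewer genes. With KH-10 replicates 1, 2 and 3 left out, these were 96 of 147, 85 of 150 and 83 of 141. With CK replicates 1, 2 and 3 left out, they were 86 of 138, 85 of 142 and 83 of 150.

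**Figure D4:**
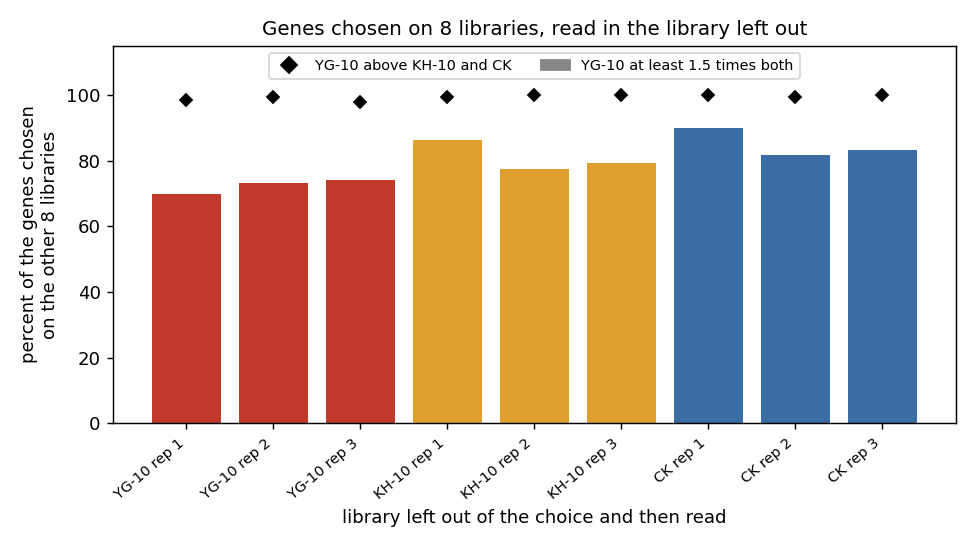
For each library left out (horizontal axis), bars give the percent of genes chosen on the other 8 libraries whose YG-10 value was at least 1.5 times both KH-10 and CK when the library left out stood for its group, and diamonds the percent with YG-10 above both. Bars are lowest for the YG-10 libraries, at 69.8% to 74.0%, and diamonds lie at 97.9% or more. All values but those of the library left out took part in the choice, and the limits on KH-10 over CK are not shown. The same shares over all genes were not computed.

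Of the 145 members, 62 were chosen in all 9 of these sets. Their median rise was 1.92 times, against 1.60 times in the other 83. Their YG-10 libraries lay above all others in all 62 (9.89% of all genes tested). Being chosen 9 times favours genes well past the limits, so both values describe the choice. The first 2 abundant members differ here: Vadar_g46442.v1.2 was in all 9 sets and Vadar_g661.v1.2 in 7. Vadar_g14394.v1.2 was in all 9, and Vadar_g21927.v1.2 in 7.

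Values near the limits of the rule show how fine its edges are. At the level limit, members just inside had 5.002 and 5.03 CPM in YG-10, and genes just outside 4.92 and 4.81 CPM. For YG-10 over CK both nearest members were at 1.502 times, and the nearest genes outside at 1.48 and 1.47 times. For YG-10 over KH-10 the members nearest the limit were at 1.504 and 1.51 times and those outside at 1.496 and 1.49 times. For KH-10 over CK the lower edge lay between members at 0.822 and 0.830 and genes at 0.794 and 0.793, and the upper edge between members at 1.245 and 1.243 and genes at 1.251 and 1.253.

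By identifier, 123 members were Vadar genes and 22 non-Vadar loci. Non-Vadar loci made up 15.2% of the members and 12.0% of all genes with at least 5 CPM in YG-10. The 22 had a median YG-10 level of 7.25 CPM and a median rise of 1.98 times, and the 123 Vadar members 16.4 CPM and 1.68 times. The most abundant non-Vadar member had 77.1 CPM in YG-10.

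Some members carried consecutive identifier numbers. Whether these numbers follow the order of genes on chromosomes, and whether neighbours are copies between which reads could be divided, is not given in the sources used here. There were 6 such runs, 5 of 2 members and 1 of 3, holding 13 of the 123 Vadar members. Of 108 Vadar genes with at least 5 CPM in YG-10 that were 1 number away from a member, 13 (12.0%) were members themselves, against 0.973% of all 12636 Vadar genes at that level. Of the 95 such neighbours that were not members, 24 (25.3%) had YG-10 means at least 1.5 times CK, against 14.9% of all non-member Vadar genes at that level. For YG-10 at least 1.5 times KH-10 the shares were 11.6% and 4.83%.

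The rule gave all members this pattern, so members of a run share it by choice, and only their levels and folds could differ. In the run of 3, the first averaged 49.5 ± 2.49 CPM in YG-10, 22.9 ± 0.0809 CPM in KH-10 and 21.3 ± 1.18 CPM in CK. The second averaged 31.6 ± 2.41 CPM in YG-10, 17.2 ± 1.28 CPM in KH-10 and 17.2 ± 0.720 CPM in CK. The third averaged 143 ± 9.16 CPM in YG-10, 83.3 ± 5.27 CPM in KH-10 and 78.5 ± 1.63 CPM in CK (SD, n = 3 each throughout). In all 3 the YG-10 libraries lay above the others, as in 140 of the 145 members. In the run with the most similar folds, 1 member was 1.56 times CK and the other 1.59 times, at 93.5 ± 4.79 and 77.1 ± 2.98 CPM in YG-10. In another run the members were 2.29 and 1.67 times CK, at 11.8 and 11.5 CPM in KH-10. A stretch of 250 identifier numbers that includes the run of 3 held 7 members among 81 Vadar genes with at least 5 CPM, and no stretch of that length apart from it held more than 4. This stretch was chosen after its values were seen.

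**Figure D5:**
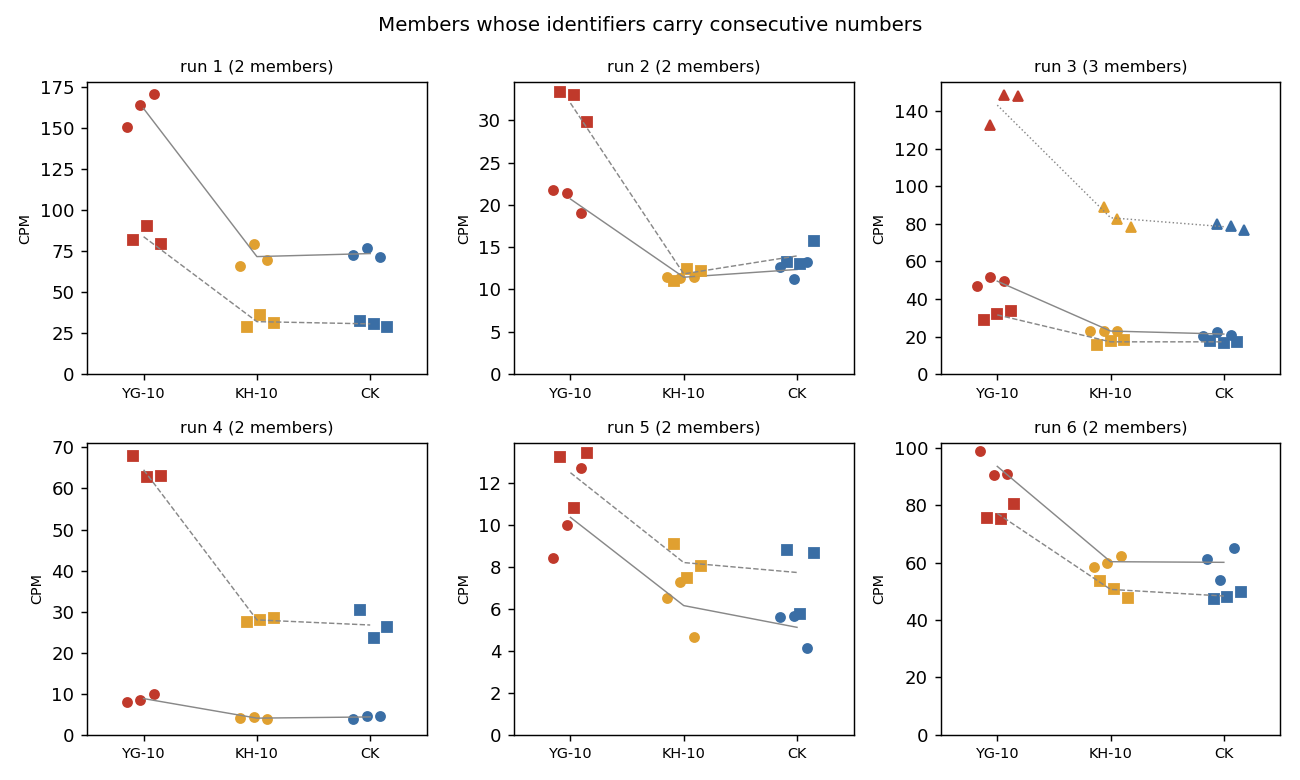
CPM of the 13 members in 6 runs of consecutive identifier numbers, 1 panel per run with its own linear axis from 0. Points are libraries, marker shapes tell the members of a run apart, and lines join group means. As the rule requires, every member has its highest mean in YG-10, with KH-10 and CK closer to each other. The YG-10 means are 1.56 to 2.73 times CK.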

How the data were processed

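The authors deposited 1 table of whole-number counts per gene, without normalization, with 1 column per library. HISAT2 2.1.0, an aligner, and StringTie 1.3.4d, an assembler of transcripts, stand in the submitters' processing notes with no role. Which tool counted, on which build and with which strand setting, is not given in the sources used here. Such counts can be rounded estimates. Libraries were grouped by their titles.

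CPM came from edgeR 4.0.16 in R 4.3.3, with TMM factors over all 38665 genes, and the rule was applied to group means. The test was edgeR's quasi-likelihood test on genes kept by filterByExpr (minimum count 10, minimum total 15), with all 9 libraries in 1 model of the 3 groups. It was also run on simulated counts in which KH-10 and CK did not differ, unlike these data, so that run does not vouch for it here. Alternatives were other scalings, filters and limits, DESeq2 1.42.0, limma 3.58.1, a replicate block and each library left out. Between-replicate SDs are of log2 CPM with a prior count of 2.

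Members described singly were the 6 with the largest rise, the 6 most abundant, the 3 widest and 3 tightest in YG-10, the longest run of identifiers and those at the limits; no member was at 0 in a group. The members and lists were chosen with earlier results of these data known.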

Additional observations from a re-analysis of the deposited data

Results flagged for a closer look

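The change relative to water was not the same for the 2 stages of treatment in 142 of the 145 members, by the direct test of YG-10 against KH-10 (edgeR's quasi-likelihood test, adjusted p under 0.05). Of all genes tested, 10.4% were higher in YG-10 than in KH-10 by this test. The median log2 difference over the members was 0.83. The rule chose the members on this contrast, so the count is a description. No group held enough libraries to test for a single outlying library.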

How the results depend on the processing

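The number of members follows the limits of the rule. A fold of 5/4 gave 458 genes and a fold of 2 gave 46. A minimum of 1 CPM gave 330 and one of 10 CPM gave 90. A KH-10 to CK band of 0.9 to 1.1 gave 73 and one of 0.67 to 1.5 gave 232. Scaling changed the members more than their number: library totals alone gave 133 genes, of which 97 were among the 145, and upper quartile factors 142 with 126 shared. With the scaling kept, group medians in place of means gave 129 with 104 shared. With any 1 library left out there were 138 to 150 genes, with 116 to 132 shared. Library totals alone set the median YG-10 level of the members at 13.5 CPM and their sum at 20209 CPM.

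The count of members past the threshold stayed within 1.5 times in each comparison under all alternatives run. The rule used these contrasts, so the counts are a description. In edgeR's test on all 9 libraries, 25.6% of all genes tested were higher in YG-10 than in CK. For YG-10 against KH-10, 10.4% were higher. For KH-10 against CK, 24.3% were higher and 24.4% lower. Leaving out each library gave 138 to 144 for YG-10 against CK, 131 to 142 for YG-10 against KH-10 and 11 to 18 for KH-10 against CK. DESeq2 gave 143, 138 and 13. With the replicate number as a block the counts were 143, 141 and 17. Same-numbered libraries did not deviate together (r from -0.04 to 0.05 over 9 pairs, and from -0.05 to 0.06 over 18 pairs with different numbers). A pairing that left no shared deviation would look the same, so this does not decide whether the numbers pair the samples.

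Of 600 alternative values of log2 fold changes of single members, 586 kept their direction and side of the threshold. The others belong to the 3 members with wide YG-10 libraries. With any 1 library left out, the log2 fold change of the widest ran from -0.20 to 1.39 against CK and from -0.0386 to 1.28 against KH-10, and that of the third widest from -0.33 to 1.43 and from -0.58 to 1.24. The negative values are those without YG-10 replicate 1. The cause was not tested. Depth limits the scarcest members: the lowest count of a member in a YG-10 library was 63, and in any library 11.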
